A study of Mus musculus with 4 samples.

Results

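Enteroendocrine cells are the hormone-secreting cells scattered through the gut epithelium, and 10 of their genes were followed here through mouse colon. The genes were taken by symbol from the 44788 gene rows of the deposited count table, and all 10 were found. They comprise the 6 peptide hormone genes Insl5, Gcg, Pyy, Sst, Cck and Nts, the 2 granin genes Chga and Chgb, the serotonin-making enzyme gene Tph1, and Neurod1, which encodes a transcription factor of the lineage. In the 4 libraries together they were counted from 2 to 6942 times per library, so they span rare and abundant transcripts.

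Enteroendocrine cells arise from crypt stem cells, and each subtype packs its own mix of hormones into dense-core granules whose matrix is built by granins. In the colon, L cells make proglucagon (Gcg, the precursor of GLP-1, GLP-2 and oxyntomodulin), peptide YY and, towards the rectum, insulin-like peptide 5 (Insl5). Enterochromaffin cells make most of the body's serotonin through Tph1, and D cells make somatostatin (Sst). Cholecystokinin (Cck) and neurotensin (Nts) are better known from the small intestine, although colonic L cells can make neurotensin too.

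The study used C57BL/6 mice, either wild type (WT) or labelled as Card9-/-, and made 1 colon library for each of 4 groups. Card9 encodes an adaptor that carries signals from fungal receptors in myeloid cells. The 2 untreated groups, WT and Card9-/-, were collected on day 0. The 2 treated groups received 10 mg/kg azoxymethane (AOM, a colon carcinogen) on day 1 and then 3 cycles of 7 days of 2% dextran sulfate sodium (DSS, which injures the colon epithelium) in drinking water, and were collected on day 100. Treatment and collection day therefore coincide and cannot be told apart. The labels give neither the number of mice behind a library, nor how the Card9 allele was made, nor which stretch of colon was taken.

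Library totals ran from 23022885 to 27706567 counts. The targeted gene went against the genotype labels: Card9 stood at 1.75 CPM in untreated WT, 3.18 CPM in the untreated library labelled knockout, 5.32 CPM in WT after AOM/DSS and 7.73 CPM in the AOM/DSS library labelled knockout. Whether these reads lie outside a deleted part was not tested, and the libraries are called "labelled knockout" throughout. The labelled knockout AOM/DSS library stood apart from the rest, with a correlation across 16383 genes of 0.827 to 0.855 with the other libraries, which correlated with each other at 0.942 to 0.954. CPM are counts scaled to a common library size with TMM factors, which correct for library composition. No group has a replicate, so folds below are ratios of CPM with exact 95% intervals (Clopper-Pearson) that cover counting error only and compare libraries, not conditions.

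Genes that mark position along the gut also differed between the genotype labels. The 4 posterior Hox genes Hoxa13, Hoxb13, Hoxc13 and Hoxd13, which mark the most distal gut, summed to 1.35 CPM in untreated WT and 0.78 CPM in WT after AOM/DSS, but to 375.5 CPM in the untreated and 208.1 CPM in the AOM/DSS library labelled knockout. Hoxb13 had 1 count in each WT library against 7163 and 3438 counts in the libraries labelled knockout. Hoxc13 had 0 counts in every library. In this design the genotype label and the Hox level cannot be told apart. This list was added after its values were seen.

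The promoters of 4 members are shown because Gcg and Insl5 spanned the widest range between libraries and because Chgb and Sst share a cAMP response element. Each sequence holds the 250 bases before the transcription start that RefSeq lists on GRCm38.p6, written 5′ to 3′ in the gene's direction. For Sst this start lies inside the annotated gene bounds. Capitals mark matches on either strand to the cAMP response element TGACGTCA, the E-box CAGATG of neurogenic factors such as Neurod1, the E-box CAGCTG, and the TATA box TATAAA.
Gcg, chr2:62483654-62483903, minus strand: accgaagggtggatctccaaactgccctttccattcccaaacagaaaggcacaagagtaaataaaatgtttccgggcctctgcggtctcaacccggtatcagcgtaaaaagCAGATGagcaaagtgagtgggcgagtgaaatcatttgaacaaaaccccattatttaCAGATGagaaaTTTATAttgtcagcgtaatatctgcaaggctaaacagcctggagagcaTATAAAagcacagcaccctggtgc
Insl5, chr4:103027272-103027521, minus strand: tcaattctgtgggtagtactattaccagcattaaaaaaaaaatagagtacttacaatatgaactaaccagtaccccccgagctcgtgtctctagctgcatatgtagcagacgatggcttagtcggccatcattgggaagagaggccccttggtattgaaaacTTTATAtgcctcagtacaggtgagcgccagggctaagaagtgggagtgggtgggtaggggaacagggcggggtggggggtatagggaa
Chgb, chr2:132781392-132781641, plus strand: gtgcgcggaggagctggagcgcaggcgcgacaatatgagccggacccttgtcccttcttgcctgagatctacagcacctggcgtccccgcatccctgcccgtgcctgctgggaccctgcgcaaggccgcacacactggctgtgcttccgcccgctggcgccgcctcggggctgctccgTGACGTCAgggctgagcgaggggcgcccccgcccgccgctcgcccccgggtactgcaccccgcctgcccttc
Sst, chr16:23890845-23891094, minus strand: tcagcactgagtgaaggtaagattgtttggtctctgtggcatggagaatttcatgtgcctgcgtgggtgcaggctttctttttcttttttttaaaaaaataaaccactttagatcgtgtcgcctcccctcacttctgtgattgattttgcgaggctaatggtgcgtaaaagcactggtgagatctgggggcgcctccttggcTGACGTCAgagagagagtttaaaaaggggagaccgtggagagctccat

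All 10 members matched a promoter in that table. The cAMP response element, which reads the same on both strands, was found in Chgb (72 to 65 bases before the start) and Sst (48 to 41 bases before it), so in 2 of 10 members against 1.55% of 32851 promoters of the same length. CAGATG or its reverse CATCTG occurred in Gcg, 139 and 83 bases before the start, and in Cck, 30 bases before it, against 14.4% of promoters. CAGCTG was found in Chga and Nts, against 13.0%. TATAAA or its reverse TTTATA was found in Gcg and Insl5, against 12.4%. None of the matches printed overlapped another. A match describes letters in this window and is no measurement of binding.

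**Figure D1:**
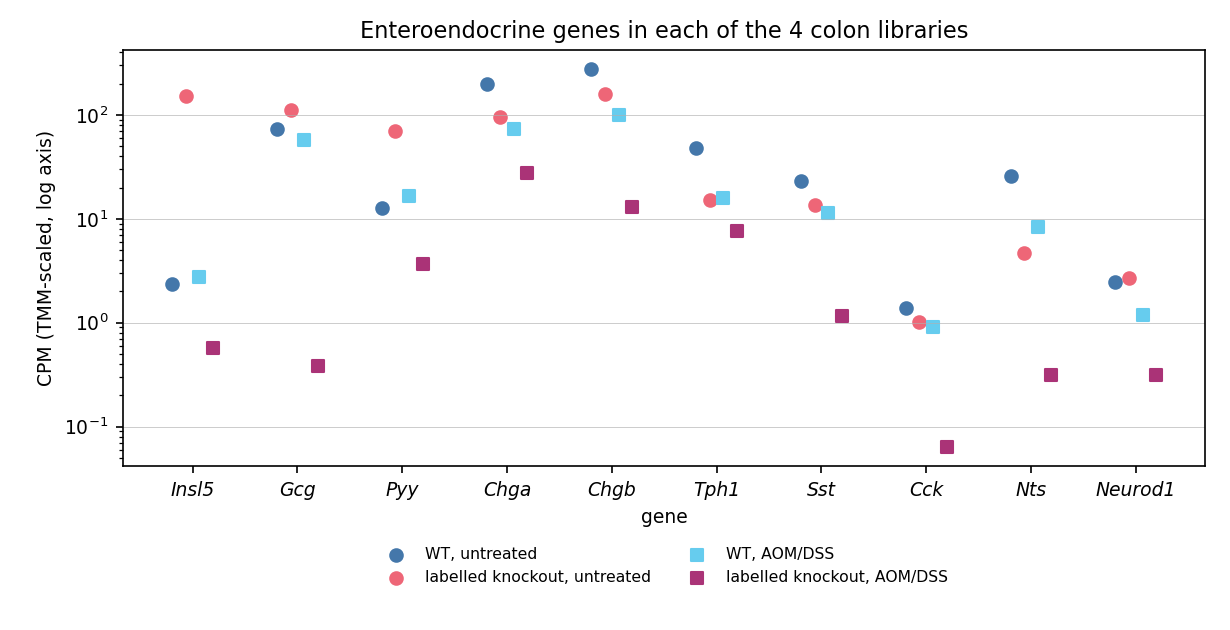
CPM after TMM scaling (log axis) of the 10 genes in each of the 4 libraries; 1 point is 1 library and there are no error bars because each group has 1 library. All 10 genes were lowest in the labelled knockout AOM/DSS library, while Insl5, Gcg and Pyy were highest in the untreated labelled knockout library.

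Levels of different genes were compared per kilobase of exon. In untreated WT colon the granin Chgb led at 100.5 CPM per kb, followed by Chga at 72.1, Gcg at 48.8, Sst at 31.9, Nts at 20.7, Pyy at 20.1, Tph1 at 7.81 and Insl5 at 3.29 CPM per kb. In the untreated labelled knockout library the leading gene was Insl5 at 208.3 CPM per kb, ahead of Pyy at 110.0 and Gcg at 75.3 CPM per kb. In WT colon after AOM/DSS, Gcg at 38.9 and Chgb at 36.6 CPM per kb led. In the labelled knockout AOM/DSS library Chga was at 10.1, Pyy at 5.80 and Chgb at 4.74 CPM per kb, while Gcg and Nts were both at 0.25 CPM per kb.

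Among the L cell hormones, Insl5 (chr4:103017872-103027271, GRCm38) encodes a peptide that acts on the receptor RXFP4 and marks L cells of the distal colon. It had 60 counts in untreated WT, 3276 in the untreated labelled knockout, 60 in WT after AOM/DSS and 18 in the labelled knockout after AOM/DSS, or 2.38, 150.8, 2.75 and 0.57 CPM. The untreated labelled knockout library was thus far above the other 3, 63.4-fold above untreated WT (interval 49.1 to 83.2). Both WT libraries lay together, with a ratio of 1.16 (0.79 to 1.68) that did not differ beyond counting error and fell below 1 when scaled to pan-epithelial genes. The labelled knockout AOM/DSS library was 4.84-fold (2.82 to 8.72) below WT after AOM/DSS.

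Pyy (chr11:102106676-102107832) encodes peptide YY, which slows transit and lowers appetite. Its level was 12.7 CPM in untreated WT, 69.4 in the untreated labelled knockout, 16.6 in WT after AOM/DSS and 3.66 in the labelled knockout after AOM/DSS. Like Insl5 it was highest in the untreated labelled knockout library, 5.47-fold (4.84 to 6.19) above untreated WT. In WT colon it was 1.31-fold (1.13 to 1.53) higher after AOM/DSS, in the labelled knockout 19.0-fold (15.7 to 23.1) lower. Scaled to pan-epithelial genes, the log2 ratio of Pyy in the WT pair went from 0.39 to 0.10, within counting error of 0.

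Gcg (chr2:62474530-62483653), the proglucagon gene, was counted 1837 times in untreated WT, 2443 times in the untreated labelled knockout, 1266 times in WT after AOM/DSS and 12 times in the labelled knockout after AOM/DSS. In CPM these were 72.9, 112.4, 58.1 and 0.38. The other 3 libraries lay within a narrow band and the labelled knockout AOM/DSS library lay far below it. The neighbours in this order differed by 1.54-fold (1.45 to 1.64), 1.26-fold (1.17 to 1.35) and 153-fold (87.4 to 297), the last step from WT after AOM/DSS to the labelled knockout after AOM/DSS.

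Beside these hormone values, Hoxa13, Hoxb13 and Hoxd13 were high in both libraries labelled knockout and low in both WT libraries. Insl5 and Pyy followed this order in the untreated pair and not in the AOM/DSS pair, where the labelled knockout library held less of both hormones and 12.5, 108.5 and 87.1 CPM of Hoxa13, Hoxb13 and Hoxd13. The part of colon position in the hormone values was not tested.

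**Figure D2:**
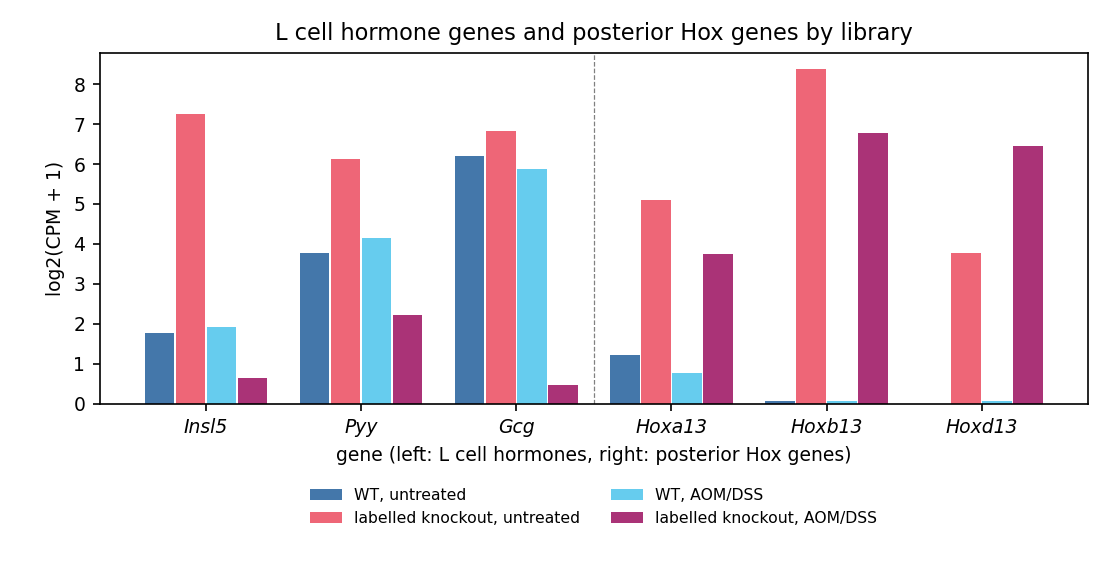
log2(CPM + 1) of the L cell hormone genes Insl5, Pyy and Gcg (left of the dashed line) and of the posterior Hox genes Hoxa13, Hoxb13 and Hoxd13 (right of it); each bar is 1 library. The Hox genes were high in both libraries labelled knockout, whereas the 3 hormone genes were high in the untreated and low in the AOM/DSS library with that label.

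Among the other hormones, Sst (chr16:23889573-23891342), which encodes the inhibitory peptide somatostatin, stood in a stepped order: 23.0 CPM in untreated WT, 13.6 in the untreated labelled knockout, 11.3 in WT after AOM/DSS and 1.17 in the labelled knockout after AOM/DSS. Nts (chr10:102481756-102490418), the neurotensin gene, stood at 25.9, 4.74, 8.30 and 0.32 CPM in the same order of libraries. Unlike the L cell hormones Insl5, Pyy and Gcg, it was 5.46-fold (4.43 to 6.78) lower in the untreated labelled knockout than in untreated WT. Cck (chr9:121489824-121495694), the cholecystokinin gene, was rare, with 35, 22, 20 and 2 counts, and its first 3 levels could not be told apart at this depth.

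The small intestine list, which bears on Nts and Cck, summed to 254.5 CPM in untreated WT, 201.0 in the untreated labelled knockout, 783.4 in WT after AOM/DSS and 45.7 in the labelled knockout after AOM/DSS. Nts was lower in WT after AOM/DSS while this list was higher there. In the other pairs Nts and the list sum moved the same way. Nts and the list sum were both lower in the labelled knockout than in WT at each treatment, and lower after AOM/DSS in the labelled knockout. Between the untreated libraries the list was split, however. Of its 6 measured genes 1 was at least 2-fold higher and 1 lower, with a median log2 ratio of -0.02. Sis was 29.8-fold (18.2 to 52.6) lower there and Rbp2 6.55-fold (4.93 to 8.85) higher. The part of small intestine cells in the Nts and Cck values was not tested. Pancreatic tissue also makes Gcg, Sst and Pyy. Of 13 pancreatic islet and acinar genes, 4 (Ins1, Ins2, Prss1 and Amy2a5) had 0 counts in all 4 libraries, and the list summed to 27.3 CPM in untreated WT, 217.9 in the untreated labelled knockout, 51.2 in WT after AOM/DSS and 39.6 in the labelled knockout after AOM/DSS. Most of the 217.9 CPM was Cela1 at 204.6 CPM, and Ppy had 130 counts in that library, 10.1-fold (5.88 to 18.5) more in CPM than in untreated WT. The part of pancreatic tissue in the hormone values was not tested.

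Both granin genes were highest in untreated WT and lowest in the labelled knockout after AOM/DSS. Chga (chr12:102554941-102565027), which encodes chromogranin A, stood at 198.6 CPM in untreated WT, 95.2 in the untreated labelled knockout, 73.1 in WT after AOM/DSS and 27.9 in the labelled knockout after AOM/DSS. Chgb (chr2:132781642-132795079), which encodes chromogranin B, stood at 275.4, 158.1, 100.2 and 13.0 CPM in the same libraries. Each step of both orders was beyond counting error, and the order of the libraries was the same for both genes. Chgb spanned 21.2-fold and Chga 7.11-fold from the highest to the lowest library. Within a library, 1.39 Chgb reads were counted per Chga read in untreated WT, 1.66 in the untreated labelled knockout and 1.37 in WT after AOM/DSS, but 0.46 (0.41 to 0.52) in the labelled knockout after AOM/DSS.

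Tph1 (chr7:46644641-46672537), which encodes the rate-limiting enzyme of serotonin synthesis outside the nervous system, stood at 48.2 CPM in untreated WT, 15.3 in the untreated labelled knockout, 16.0 in WT after AOM/DSS and 7.61 in the labelled knockout after AOM/DSS. Untreated WT stood above the other libraries, and the middle levels did not differ beyond counting error (ratio 1.04, 0.90 to 1.22). Tph1 had the smallest range of the 10 genes, 6.34-fold. Its ratio to Chga was 0.24 in untreated WT, 0.16 in the untreated labelled knockout, 0.22 in WT after AOM/DSS and 0.27 (0.24 to 0.31) in the labelled knockout after AOM/DSS. The interval of the last overlapped that of untreated WT (0.23 to 0.26). Mast cells express Tph1 too, and the mast cell list summed to 156.9, 99.4, 101.1 and 209.9 CPM in the same order. Kit alone stood at 153.0, 88.8, 55.7 and 29.0 CPM and made up most of each sum except the last. The mast cell proteases Mcpt1 and Mcpt2 were 12.6-fold (10.0 to 15.9) and 62.2-fold (42.7 to 94.6) higher in the AOM/DSS than in the untreated labelled knockout library. In that pair 9 of the 11 list genes were at least 2-fold higher on the log2(CPM + 1) scale, and 1, Kit, was at least 2-fold lower. Of all 15900 genes tested in that pair, 14.1% were higher and 15.9% lower. The part of mast cells in the Tph1 level was not tested.

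Neurod1 (chr2:79452637-79456636), which encodes a basic helix-loop-helix factor of enteroendocrine precursors and mature cells, had 62, 58, 26 and 10 counts. Its level was 2.46 CPM in untreated WT and 2.67 in the untreated labelled knockout, which did not differ beyond counting error, 1.19 in WT after AOM/DSS and 0.32 in the labelled knockout after AOM/DSS. Neurod1 was thus level across the untreated libraries in which Insl5 differed 63.4-fold. Per Neurod1 read, 0.97 (0.67 to 1.40) Insl5 reads were counted in untreated WT and 56.5 (43.6 to 74.6) in the untreated labelled knockout.

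Summed by role, the 6 peptide hormone genes gave 138.2 CPM in untreated WT, 352.0 in the untreated labelled knockout, 98.0 in WT after AOM/DSS and 6.16 in the labelled knockout after AOM/DSS. The 2 granins gave 474.0, 253.3, 173.3 and 40.9 CPM. Between the untreated libraries the summed hormones were 2.55-fold (2.45 to 2.65) higher and granins 1.87-fold (1.81 to 1.93) lower in the labelled knockout. Insl5, Pyy and Gcg carried the higher hormone sum, since the levels of Nts, Sst and Cck were lower in the labelled knockout library, Cck within counting error. In the labelled knockout pair after AOM/DSS, hormones were 57.2-fold (49.6 to 66.3) and granins 6.19-fold (5.83 to 6.58) lower. In the WT pair, granins were 2.74-fold (2.64 to 2.84) lower and hormones 1.41-fold (1.34 to 1.49) lower.

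**Figure D3:**
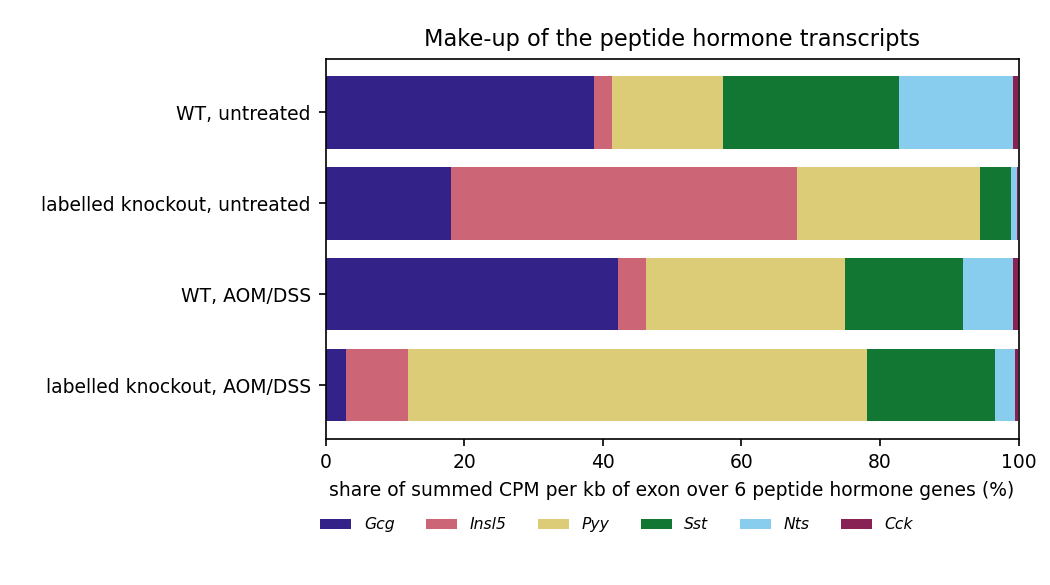
Share of the summed CPM per kb of exon taken by each of the 6 peptide hormone genes in each library (bars add up to 100%). Gcg led in both WT libraries, Insl5 in the untreated and Pyy in the AOM/DSS library labelled knockout.

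The make-up of the hormone transcripts per length had a different leading gene in each labelled knockout library, while Gcg led in both WT libraries. Gcg took 38.8% of hormone transcripts in untreated WT and 42.2% in WT after AOM/DSS, against 18.1% in the untreated and 2.89% in the AOM/DSS labelled knockout library. Insl5 took 2.61% and 4.13% in the WT libraries, 49.9% in the untreated and 8.96% in the AOM/DSS labelled knockout library. Pyy took 16.0%, 28.6%, 26.4% and 66.2% in that order. Nts went from 16.5% in untreated WT to 7.22% after AOM/DSS in WT, and stood at 0.91% in the untreated labelled knockout. The shares of the labelled knockout AOM/DSS library rest on 195 counts.

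The first comparison sets the WT library after AOM/DSS beside the untreated WT library. Granins, Tph1 and Nts were lower after AOM/DSS, while the L cell hormones differed less: Gcg was 1.26-fold lower, Pyy 1.31-fold higher and Insl5 within counting error. Chga was 2.72-fold (2.57 to 2.88), Chgb 2.75-fold (2.62 to 2.89), Tph1 3.02-fold (2.68 to 3.41) and Nts 3.12-fold (2.64 to 3.70) lower. For the counts of members, a gene had to reach 50 counts in whichever library was higher and differ by 2-fold or more after adding 1 CPM, a step that shrinks the ratios of rare genes. By that rule 4 of the 9 members with enough counts were lower and 0 higher, where 3.88% of 15356 genes were lower and 4.08% higher. The members' median log2 ratio was -0.96, beside 0.02 for all genes. Sst was 2.03-fold (1.75 to 2.37) and Neurod1 2.06-fold (1.29 to 3.40) lower and missed the rule once 1 CPM was added, and Cck was below the count minimum.

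Pan-epithelial genes did not move with these values in the WT pair: 0 of 9 passed in either direction, with a median log2 ratio of 0.20. Of 7 tuft cell genes, another rare epithelial type, 3 were lower, beside 3.88% of all genes. Of 12 enteric neuron genes, which share granins and some peptides with enteroendocrine cells, 0 passed. The part of these cells in the members' values was not tested. In bulk tissue, fewer enteroendocrine cells and less RNA per cell cannot be told apart.

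In the labelled knockout pair the AOM/DSS library was lower for every member. Gcg and Insl5 differed most: Gcg was 297-fold (170 to 575) and Insl5 265-fold (168 to 448) lower, and Pyy 19.0-fold lower. Nts was 15.0-fold (7.85 to 32.3), Chgb 12.2-fold (11.0 to 13.5), Sst 11.6-fold (8.24 to 16.8), Neurod1 8.46-fold (4.29 to 18.6) and Chga 3.41-fold (3.15 to 3.69) lower. Tph1, 2.01-fold (1.70 to 2.38) lower, did not pass on the log2(CPM + 1) scale, and Cck, at 22 and 2 counts, was below the minimum with a ratio of 16.0 (3.94 to 141). By the rule 8 of 9 members were lower and 0 higher, where 15.9% of 15900 genes were lower and 14.1% higher, and the members' median was -2.75 beside 0.03 for all genes.

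Several other cell types differed in the same pair, in which 15.9% of all genes were lower and 14.1% higher. Of the 12 mature colonocyte genes 11 were lower, with a median of -3.96 and summed levels of 7235 CPM untreated and 760.8 CPM after AOM/DSS. Goblet cell genes were lower in 8 of 10, enteric neuron genes in 10 of 11, enteric glia genes in 4 of 4 and smooth muscle genes in 8 of 8. Pan-epithelial genes summed to 13170 and 9977 CPM, with 1 of 9 lower and 1 higher. Stem cell and Wnt target genes were higher in 11 of 11 and proliferation genes in 9 of 10. The part of these cell types in the members' values was not tested.

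**Figure D4:**
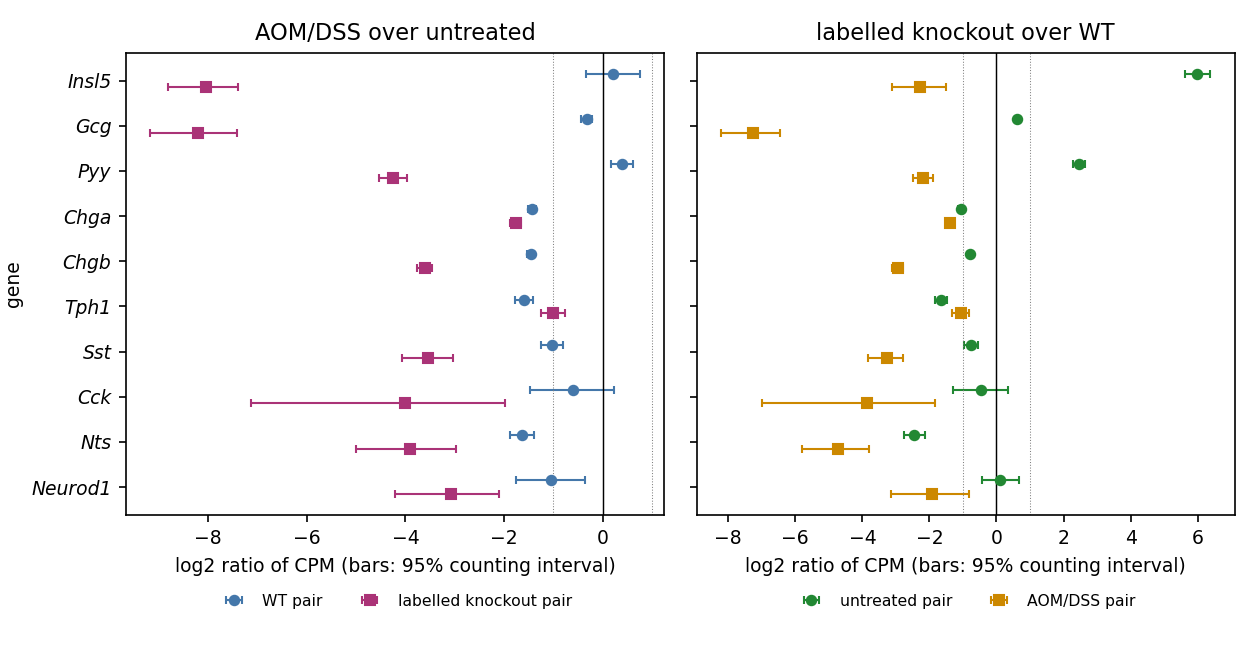
log2 ratio of CPM for each of the 10 genes, AOM/DSS over untreated (left) and labelled knockout over WT (right), with bars for the exact 95% counting interval and dotted lines at 2-fold. Each point compares 2 libraries. Insl5, Gcg and Pyy lay near 0 in the WT pair and far below 0 in the labelled knockout pair. Chga and Tph1 differed less between these pairs. Chga was 2.72-fold lower in the WT and 3.41-fold lower in the labelled knockout pair, Tph1 3.02-fold and 2.01-fold lower.

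The third comparison sets the untreated libraries side by side, labelled knockout over WT. Insl5 and Pyy were higher by 63.4-fold and 5.47-fold, Gcg was 1.54-fold higher, and Nts, Tph1 and Chga were 5.46-fold, 3.15-fold (2.79 to 3.57) and 2.09-fold (1.98 to 2.20) lower. By the rule 2 of 9 members were higher and 3 lower, where 4.46% of 15352 genes were higher and 3.37% lower. The members' median was -0.72 beside -0.01 for all genes. Chgb at 1.74-fold (1.67 to 1.82) and Sst at 1.70-fold (1.47 to 1.96) were lower without reaching 2-fold. The summed level of all 10 genes differed by 1.06-fold (1.04 to 1.09), a small difference beside those of its members.

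After AOM/DSS, all 10 members were lower in the labelled knockout than in WT, beyond counting error in each case. Gcg was 153-fold, Nts 26.3-fold (14.0 to 55.8), Sst 9.70-fold (6.84 to 14.1) and Chgb 7.72-fold (6.95 to 8.60) lower, and Cck, on 20 and 2 counts, 14.5-fold (3.53 to 128). Pyy was 4.55-fold (3.68 to 5.65) and Chga 2.62-fold (2.41 to 2.84) lower. By the rule 7 of 8 members were lower and 0 higher, where 12.4% of 15779 genes were lower and 11.9% higher, with a median of -2.21 beside 0.03 for all genes. Tph1, 2.10-fold (1.78 to 2.48) lower, was the member that did not pass, and Cck and Neurod1 were below the count minimum. The 12 mature colonocyte genes were all lower too in this pair, as were 10 of 11 enteric neuron genes.

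The log2(CPM + 1) ratios of AOM/DSS over untreated were then subtracted, labelled knockout minus WT. The result is called the difference of responses and compares libraries, not conditions. The difference was -6.75 for Insl5, -6.04 for Gcg, -4.28 for Pyy, -2.06 for Chgb and -1.79 for Sst, and closer to 0 for Chga (-0.30), Nts (-0.59) and Tph1 (0.62). The value for Nts is small on this scale because of the added 1 CPM: its CPM ratios were 3.12-fold lower in WT and 15.0-fold lower in the labelled knockout. The first 5 members named lay at or below -1 (8 members when 0.5 CPM was added instead), where 16.3% of 16383 genes did and 14.2% lay at or above 1. The members' median of -1.79 stood beside -0.03 for all genes. No error can be given for these differences, and both pairs contribute to each.

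In a joint fit of all 4 libraries with genotype label and treatment as additive terms (edgeR's quasi-likelihood test, Benjamini-Hochberg adjustment over 18973 genes), 0 members and 0 genes passed an adjusted p of 0.05 for treatment or genotype label (0.0% for either term). The fit has 1 residual degree of freedom, which also holds the difference of responses just described. At an unadjusted p under 0.05 it called 5 members and 1148 genes (6.05%) for treatment, and 4 members and 746 genes (3.93%) for the genotype label. The members with an unadjusted p under 0.05 for treatment were Chga, Chgb, Tph1, Sst and Nts, which were lower after AOM/DSS in both pairs. The lowest adjusted p was 0.57 for treatment (Chga) and 0.88 for the genotype label (Nts). DESeq2, fitted to the same design, called 4 members and 340 of 18973 genes for treatment. Its adjusted p were 0.0042 for Chgb, 0.0052 for Gcg, 0.013 for Nts and 0.019 for Insl5. In the WT pair Gcg was only 1.26-fold lower and Insl5 1.16-fold higher, within counting error. In the labelled knockout pair they were 297-fold and 265-fold lower, so these calls rest mainly on that pair. For the genotype label DESeq2 called 256 of 18973 genes and 1 member, Nts (adjusted p = 0.0002).

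Around the 10 members, the granule and prohormone processing list covered mainly granins, convertases and vesicle proteins, and also held the peptidase gene Dpp4. In the WT pair 4 of 19 measured genes were lower and 0 higher (3.88% and 4.08% of all genes). In the labelled knockout pair 14 of 19 were lower (15.9% of all genes). Between the untreated libraries 2 of 19 were lower (3.37% of all genes). Between the AOM/DSS libraries 13 of 18 were lower and 1 higher (12.4% and 11.9% of all genes). Pcsk1, the convertase that cuts prohormones, stood at 38.8 CPM in untreated WT, 12.0 in the untreated labelled knockout, 11.2 in WT after AOM/DSS and 1.89 in the labelled knockout after AOM/DSS. Untreated WT was highest and the labelled knockout after AOM/DSS lowest, as for Chga and Chgb, while the middle levels of Pcsk1, on 261 and 244 counts, lay close together. Secretogranin II (Scg2), another granin, was 7.53-fold (5.92 to 9.67) lower in the labelled knockout pair and 1.18-fold (1.04 to 1.35) lower in the WT pair. Carboxypeptidase E (Cpe), which trims the cut peptides, was 5.21-fold (4.79 to 5.68) and 2.17-fold (2.04 to 2.30) lower.

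Of 12 other gut hormone genes, 4 or 5 had enough counts in a pair. Secretin (Sct), which late enterochromaffin cells co-express, stood at 34.4 CPM in untreated WT, 10.7 in the untreated labelled knockout, 16.5 in WT after AOM/DSS and 1.48 in the labelled knockout after AOM/DSS. Sct was past the rule in all 4 pairs and lower each time. Galanin (Gal), also a neuropeptide, was level between the untreated libraries (1.00-fold, 0.75 to 1.34) and 14.9-fold (7.52 to 33.6) lower in the labelled knockout pair. No gene of this list was past the rule in the upward direction in any pair.

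Of 8 serotonin pathway genes 0 passed in the WT pair. Short of 2-fold, the decarboxylase gene Ddc was 1.51-fold (1.36 to 1.68) and the vesicular transporter gene Slc18a2 1.73-fold (1.21 to 2.50) lower there. In the labelled knockout pair 4 of 8 were lower and 1 higher, beside 15.9% and 14.1% of all genes. The share of higher genes was thus near that of all genes. The higher gene was Slc18a1, which loads serotonin into vesicles of enterochromaffin cells: it stood at 8.05, 4.93, 7.20 and 40.8 CPM and was 8.29-fold (6.80 to 10.2) higher in the labelled knockout pair. Slc6a4, the serotonin transporter that epithelial cells use to take serotonin back up, was 11.7-fold (8.96 to 15.5) lower in that pair and 4.54-fold (3.73 to 5.56) higher in the untreated labelled knockout than in untreated WT. The serotonin-degrading oxidases Maoa and Maob were 5.80-fold (5.57 to 6.04) and 9.98-fold (8.10 to 12.4) lower in the labelled knockout pair.

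Transcription factors of the lineage were mostly rare, and 5 to 9 of 16 had enough counts in a pair. In the WT pair 0 of 8 passed. Isl1, a homeobox factor of several endocrine subtypes, had 13, 65, 17 and 283 counts and was 2.99-fold (2.27 to 3.97) higher in the labelled knockout pair, opposite to Neurod1. Foxa2, a factor of the endocrine and goblet lineages that also acts in other epithelium, was 5.36-fold (4.49 to 6.44) higher in the untreated labelled knockout than in untreated WT. Within the labelled knockout pair Foxa2 was 2.64-fold (2.33 to 2.99) lower after AOM/DSS, and it was still 1.58-fold (1.32 to 1.91) above WT there. Etv1 was 7.66-fold (4.72 to 13.0) lower in the labelled knockout pair.

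Of the sensors that couple luminal and neural signals to secretion, Ffar2, a receptor for short-chain fatty acids, stood at 46.2, 23.8, 16.0 and 3.66 CPM, in the order seen for the granins. It was 2.89-fold (2.57 to 3.27) lower in the WT pair and 6.49-fold (5.29 to 8.00) lower in the labelled knockout pair. Ffar4, a receptor for long-chain fatty acids, was 2.09-fold (1.84 to 2.39) higher in the WT pair and was the sensor past the rule in that direction. Adra2a, an adrenergic receptor found on enteroendocrine and other cells, was 3.58-fold (3.04 to 4.23) lower in the labelled knockout pair. Altogether 1 of 8 sensors was lower in the WT pair (3.88% of all genes) and 3 of 7 in the labelled knockout pair (15.9%). Between the AOM/DSS libraries 5 of 8 were lower (12.4% of all genes).

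Receptors of the members' products are made mainly by other cells. In the WT pair 3 of 10 were lower, beside 3.88% of all genes. Glp2r, the GLP-2 receptor, was 4.34-fold (3.43 to 5.53) lower. The somatostatin receptor Sstr1 was 3.64-fold (3.29 to 4.03) and the cholecystokinin receptor Cckar 3.50-fold (2.50 to 4.99) lower. In the labelled knockout pair 7 of 11 were lower and 2 higher, beside 15.9% and 14.1% of all genes. The share of higher receptors was thus near that of all genes. Sstr1 was 59.1-fold (40.7 to 89.4) and the serotonin receptor Htr4 10.3-fold (8.18 to 13.1) lower in the labelled knockout pair. Between the untreated libraries 2 of 11 were lower and 2 higher, beside 3.37% and 4.46% of all genes. The peptide YY receptor Npy2r was 4.62-fold (3.13 to 7.01) lower and the related Npy1r 3.41-fold (2.43 to 4.85) higher in the labelled knockout.

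**Figure D5:**
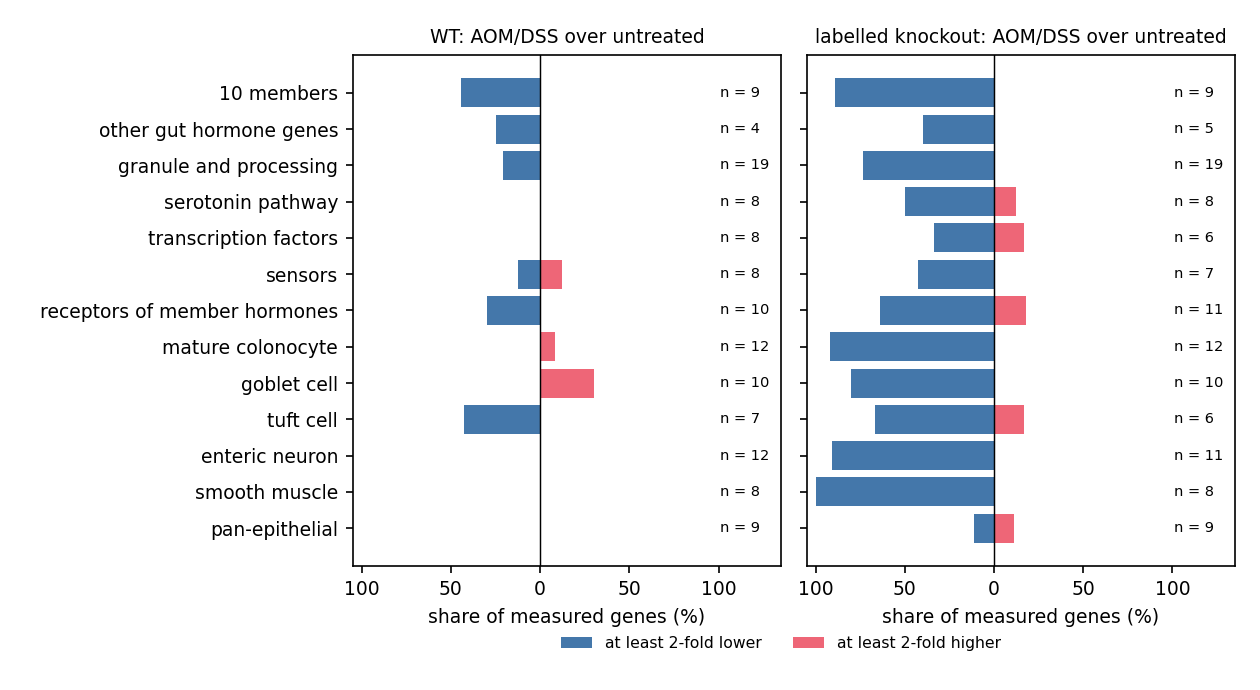
Share of measured genes of each list that were at least 2-fold lower (bars to the left) or higher (bars to the right) after AOM/DSS, in WT (left panel) and in the labelled knockout (right panel); n is the number of genes with enough counts in the pair. The members and the granule, other hormone, receptor and tuft cell lists had more lower than higher genes in both panels. The serotonin pathway, transcription factor, sensor, mature colonocyte, goblet cell, neuron and smooth muscle lists had so in the labelled knockout panel only.

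The members' profiles over the 4 libraries were compared by Euclidean distance of centred log2(CPM + 1) values, a description over 4 points that share libraries and scaling. The closest members were Cck and Neurod1 (0.51), both rare, then Chga and Tph1 (0.59) and Chgb and Sst (0.67). Insl5 was far from all others, nearest to Pyy at 2.68. Among 5818 other genes with enough counts and range, Gcg had few close profiles: 7 lay within 1, led by Selenbp1 (0.55), LOC102639132 (0.70), Sult1a1 (0.71), Pck1 (0.71) and Slc13a2 (0.72). Chga had 590 genes within 1, led by Col4a6 (0.17), Klhl23 (0.20), Arhgap24 (0.21), Lum (0.23) and Kcnd3 (0.25). Neurod1 had 1971, led by Cxx1c (0.07) and Rab27b (0.08), followed by Ece1 and Col15a1 (both 0.11) and Agap1 (0.11). The added 1 CPM flattens the profiles of rare genes such as Neurod1 and Cck, so a small distance to them does not mean equal folds. In the labelled knockout pair Neurod1 was 8.46-fold lower in CPM, while Rab27b went only from 44.1 to 15.9 CPM.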

How the data were processed

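The authors deposited 1 table of whole-number read counts by gene symbol, without normalization. Per the labels' protocols, TRIzol RNA was made into libraries by the Ion Proton RNA-seq kit v2. Reads were placed on GRCm38 (mm10), per the submitters' processing notes. The aligner, counter and annotation, and whether strand was used, were not given in the sources used here, so a gene and an antisense or overlapping neighbour may share reads. The table held 0 columns of other samples.

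CPM used TMM factors from edgeR 4.0.16 (R 4.3.3): 0.9915 and 0.9473 for WT before and after AOM/DSS, and 0.9311 and 1.1434 for the labelled knockout. Log2 ratios used a pseudocount of 1 CPM, and printed folds are ratios of CPM without it, with Clopper-Pearson 95% intervals conditional on the sum of both counts. Without molecular identifiers, reads can be copies of 1 molecule. CPM per kb used the union of each gene's exons in the GENCODE annotation of GRCm38, and positions came from RefSeq. The additive fit used filterByExpr, with DESeq2 1.42.0 as the alternative. It was also run on simulated data that held treatment changes without a difference of responses. That run cannot show how the fit behaves where responses differ between the labels. With 1 library in each group, the p-values of the fit hold no measure of spread between libraries of the same group. The 1 residual degree of freedom also holds the difference of responses.

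The members and gene lists were chosen with earlier results of these data known. Of each list, up to 4 genes with the largest ratio in the pair were eligible to be named, and for Gcg, Chga and Neurod1 the 5 closest profiles. Alternatives covered scaling, pseudocount, count minimum, depth and tool.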

Additional observations from a re-analysis of the deposited data

Results flagged for a closer look

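Pyy was lower after AOM/DSS in the labelled knockout, by 19.0-fold, and 1.31-fold higher in WT, a difference of -4.28 on the log2(CPM + 1) scale. Each side is 1 pair of libraries, and the difference was not tested. Under pan-epithelial scaling the WT log2 ratio went from 0.39 to 0.10, within counting error of 0, so the opposite direction rests on the scaling. Insl5 also had ratios of opposite sign, with the WT ratio (1.16-fold) within counting error of 1.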

How the results depend on the processing

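No paired analysis was possible because each group has 1 library. Of 260 member folds recomputed under other scalings, depths and gene sets, 230 moved by less than their counting interval and 30 moved beyond it, 10 under library totals and 20 under pan-epithelial scaling. Under pan-epithelial scaling the log2 ratios of Insl5 in the WT pair (-0.09) and of Neurod1 in the untreated pair (-0.08) changed sign, both within counting error of 0, and that of Pyy in the WT pair went from 0.39 to 0.10. The counts of members past the size rule stayed within 1.5 times of those reported under each alternative. With a pseudocount of 0.5 CPM, 8 members rather than 5 had a difference of responses at or below -1. DESeq2 called 4 members and 340 of 18973 genes for treatment, and 1 member and 256 genes for the genotype label, where edgeR called 0. Without a filter on low counts, edgeR called 81 genes for treatment and 62 for the genotype label, and 0 members. Of all genes past the size rule, 47.0% were higher in the labelled knockout pair, which became 64.1% under library totals and 69.9% under pan-epithelial scaling. For the AOM/DSS pair 48.9% became 64.2% and 75.9%, and under pan-epithelial scaling 51.3% became 27.7% in the WT pair and 57.0% became 38.1% in the untreated pair. Median log2 ratios over all genes were then 0.30 and 0.28 under library totals (labelled knockout and AOM/DSS pairs), and 0.40, 0.49, -0.26 and -0.19 under pan-epithelial scaling. TMM factors from the other 3 libraries, chosen after seeing the data because the labelled knockout AOM/DSS library stands apart, left the 20 member folds of the WT and untreated pairs within their counting intervals. Depth limits Cck, Neurod1 and the labelled knockout AOM/DSS levels of Gcg, Insl5 and Nts, which rest on 2 to 18 counts.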

Other observations

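The pancreatic polypeptide gene Ppy, a relative of Pyy, had 15 counts in untreated WT, 130 in the untreated labelled knockout, 6 in WT after AOM/DSS and 7 in the labelled knockout after AOM/DSS. It was thus 10.1-fold (5.88 to 18.5) higher in the untreated labelled knockout than in untreated WT, in the same pair in which Pyy and Insl5 were higher. Cela1, an elastase gene, stood at 25.9, 204.6, 48.7 and 38.4 CPM in the same order, also highest in the untreated labelled knockout. Ins1 and Ins2, the insulin genes, had 0 counts in all 4 libraries. The part of pancreatic tissue in these values was not tested.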
